A study of Mus musculus with 12 samples.

Results

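The interleukin (IL)-1 family transcripts of bone marrow-derived dendritic cells (BMDCs) were examined, comprising the cytokines Il1a, Il1b, Il36g and Il18, the inhibitors Il1rn and Il18bp, and the receptor chains Il1r1, Il1rap, Il1r2 and Il1rl1. These 10 genes were selected by name from the 41709 genes counted in each library. BMDCs were differentiated from mouse bone marrow with GM-CSF for 10 days, and MHCII+ cells were isolated immunomagnetically for RNA-seq. The study asked what the loss of β2 integrins does in dendritic cells (DCs), and compared CD18fl/fl with CD18CD11c cKO BMDCs (labelled CD18ΔCD11c), either unstimulated or given LPS at 100 ng/mL. The labels give 24 h of LPS treatment, whereas the paper's methods describe overnight stimulation.

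The mice of both genotypes were homozygous for loxP sites around an exon of Itgb2, which encodes CD18. The CD18CD11c cKO mice carried Cre recombinase under the CD11c promoter in addition, so that deletion depends on when and in which cultured cells this promoter is active. Each of the 4 groups held 3 libraries. The age and sex of the mice and the number of mice per library are not given in the sources used here, and nothing states that the 3 libraries of a group came from separate mice. The p-values therefore measure the spread between these libraries only. In bulk RNA, fewer cells of a type and less RNA per cell cannot be told apart.

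IL-1α and IL-1β signal through IL-1R1 together with its co-receptor IL-1RAP, whereas the decoy receptor IL-1R2 binds the cytokines without signaling. IL-1 receptor antagonist, encoded by Il1rn, occupies IL-1R1 without recruiting the co-receptor, and IL-18 binding protein neutralizes IL-18. In DCs, sensing of LPS via TLR4 activates NF-κB and AP-1 factors, which induce Il1b, and pro-IL-1β and pro-IL-18 are cleaved by caspase-1 in inflammasomes before they are released.

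Il1a, Il1b, Il36g and Il1rn lie on chromosome 2, and Il1r1, Il1r2 and Il1rl1 lie on chromosome 1. By the deposited gene coordinates, which match the GRCm39 build, Il1a spans chr2:129141530-129151892 and Il1b spans chr2:129206490-129213059, both on the minus strand. Il1rn spans chr2:24226865-24241506 on the plus strand. Windows of 250 bases upstream of a RefSeq transcript start were available for 9 of the 10 genes. They were taken from RefSeq promoter sequences of GRCm38.p6 and placed on GRCm39 by their single exact match. The windows of Il1a (chr2:129151893-129152142, minus strand), Il1b (chr2:129213060-129213309, minus strand) and Il1rn (chr2:24226622-24226871, plus strand) are shown, because these genes stood higher in each LPS-treated library than in any unstimulated library of the same genotype. Capitals mark the AP-1 motif TGANTCA and the TATA motif TATAAA, searched on both strands.
Il1a: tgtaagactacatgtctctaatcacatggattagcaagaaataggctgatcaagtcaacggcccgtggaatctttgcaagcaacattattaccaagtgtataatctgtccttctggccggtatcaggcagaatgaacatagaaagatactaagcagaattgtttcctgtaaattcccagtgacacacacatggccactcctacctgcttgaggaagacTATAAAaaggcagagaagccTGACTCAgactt
Il1b: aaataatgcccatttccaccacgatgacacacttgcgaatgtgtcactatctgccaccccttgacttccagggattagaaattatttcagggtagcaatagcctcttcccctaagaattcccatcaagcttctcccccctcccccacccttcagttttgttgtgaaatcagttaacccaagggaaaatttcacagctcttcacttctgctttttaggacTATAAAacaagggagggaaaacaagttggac
Il1rn: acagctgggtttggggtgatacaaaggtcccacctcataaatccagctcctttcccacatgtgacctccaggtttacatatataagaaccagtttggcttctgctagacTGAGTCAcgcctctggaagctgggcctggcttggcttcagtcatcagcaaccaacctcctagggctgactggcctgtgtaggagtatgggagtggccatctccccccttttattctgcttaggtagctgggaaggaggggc
The Il1a window held TGACTCA at positions -12 to -6 and TATAAA at -32 to -27, counted from the transcript start. The Il1b window held TATAAA at -31 to -26, and the Il1rn window held TGAGTCA at -141 to -135. For Il1rn, 2 further windows (chr2:24235053-24235302 and chr2:24235133-24235382, plus strand) belong to other transcript starts, are not shown and held no match. No match to the NF-kB consensus was present in any of these windows. Among 32851 windows of all genes, 6.75% held the AP-1 motif, 12.4% the TATA motif and 3.9% the NF-kB consensus. A match describes letters in the window and does not show that a factor binds there.

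The libraries held between 29689149 and 34037178 total gene reads. A floor of 3 reads corresponded to 0.0881 to 0.101 CPM (counts scaled by library size), covering counting error only. Markers of DCs were present in each library (15 of 15 markers, summed level 16460 to 47320 CPM). Itgb2 was lower in all CD18CD11c cKO libraries than in the CD18fl/fl libraries of the same state, with 120, 163 and 189 CPM against 382, 420 and 379 CPM in unstimulated BMDCs, and 114, 89.7 and 119 CPM against 167, 171 and 267 CPM after LPS. Its log2 difference was -1.26 ± 0.23 (SE; edgeR adjusted p = 0.089) and -0.93 ± 0.29 (adjusted p = 0.43), and in the test that took the replicate number as a block -1.29 (adjusted p = 0.0039) and -0.91 (adjusted p = 0.02). Residual Itgb2 reads were thus present in CD18CD11c cKO BMDCs. These counts cover the whole gene, whereas the loxP sites flank an exon, so they do not measure how complete the deletion was.

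The libraries with replicate number 3 stood apart from those numbered 1 and 2 in all groups. Mast cell and basophil markers summed to 95.9 to 184 CPM in the replicate 3 libraries and to 19 to 53 CPM in the others, and B cell markers to 1.82 to 3.58 CPM against 27.3 to 421 CPM. Summed DC markers were also lower in the replicate 3 libraries, at 16460 to 24810 CPM against 26030 to 47320 CPM. Of the mast cell markers, Mcpt4 was at 0 in all groups and Cma1 in all but LPS-treated CD18CD11c cKO BMDCs. Macrophage and monocyte markers (11 genes) summed to 1796 to 2847 CPM in unstimulated and 1806 to 2267 CPM in LPS-treated CD18fl/fl BMDCs, and to 2148 to 2562 CPM and 1339 to 1457 CPM in CD18CD11c cKO BMDCs. With LPS, 4 of the 11 markers passed the main test as lower in each genotype, against 1.83% and 1.76% of all genes. With the replicate number as a block, 5 of 11 were lower in each genotype (6.43% and 9.93% of all genes). That test also called 0 as higher in CD18fl/fl (6.33%) and 2 in CD18CD11c cKO BMDCs (10.2%). Results are therefore given also for replicates 1 and 2 only, and with a term for the replicate number, called the blocked test. The test without the block, edgeR's quasi-likelihood test over all genes of 6 libraries, is the main test. Levels of the 10 genes in all libraries are plotted in CPM.

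**Figure D1:**
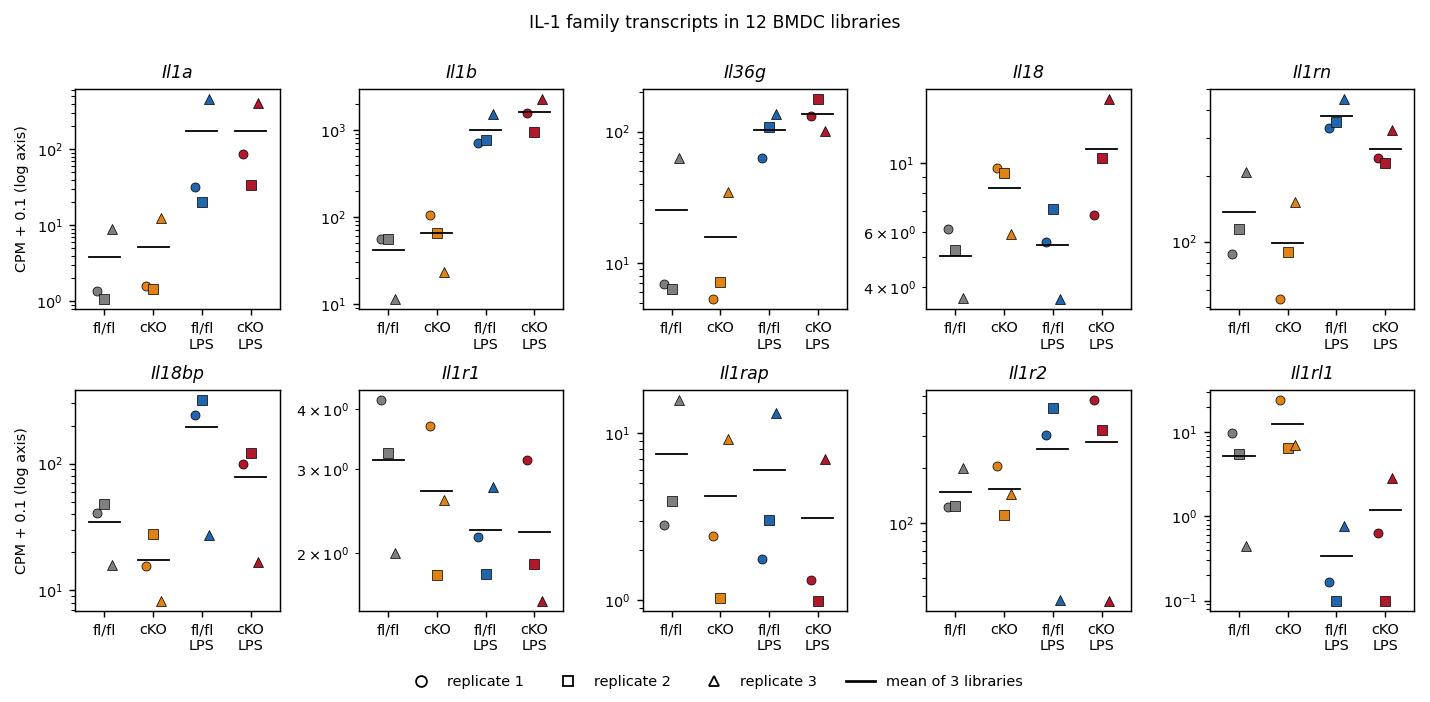
CPM (with 0.1 added, log axis) of the 10 IL-1 family genes in the 12 BMDC libraries, in 4 groups of 3, where the symbol gives the replicate number and the line the mean. Il1a, Il1b, Il36g and Il1rn lie higher in all LPS-treated libraries than in the unstimulated libraries of their genotype, and the replicate 3 libraries (triangles) often lie apart from the other 2.

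Per transcript length, Il1r2 had the highest level of the 10 genes in unstimulated BMDCs of both genotypes, and Il1b had the highest after LPS. Levels between genes are given as TPM (reads scaled by transcript length and library, the authors' values). In unstimulated CD18fl/fl BMDCs, Il1r2 reached 167 ± 47.9 TPM, Il1rn 111 ± 50.5 TPM and Il1b 67.2 ± 43.0 TPM (mean ± SD, n = 3), and the ranges of neighbors in this order overlapped. The signaling receptor Il1r1 reached 1.02 ± 0.42 TPM and its co-receptor Il1rap 1.43 ± 1.35 TPM. After LPS, Il1b reached 1388 ± 806 TPM in CD18fl/fl and 1658 ± 836 TPM in CD18CD11c cKO BMDCs. Its lowest LPS-treated library (883 TPM, in CD18CD11c cKO) lay above the highest library of any other of the 10 genes, which was 481 TPM for Il1a.

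The LPS response was examined separately in each genotype. In CD18fl/fl BMDCs, 1 of the 10 genes passed the main test, which was Il1b, and it rose 24.4-fold (13.3-fold with replicates 1 and 2 only). Among all 12744 genes tested, 3.89% passed, 2.06% as higher and 1.83% as lower (263 and 233 genes). With library size scaling, the split was 143 higher and 304 lower. In the blocked test, Il1a, Il1b, Il36g, Il1rn and Il18bp passed as higher, 5 of 10 against 6.33% of all genes (6.43% were called lower). With replicates 1 and 2 only, 6 genes passed as higher and 1 as lower, while 47.5% of all genes passed (23.2% higher, 24.3% lower). The median log2 change of the 10 genes was 1.13, and that of all genes was -0.02.
Il1b again was the only one of the 10 to pass the main test in CD18CD11c cKO BMDCs, against 3.99% of 12687 genes (2.23% as higher and 1.76% as lower, 283 and 223 genes). With library size scaling, 186 were higher and 300 lower. The blocked test called the same 5 genes as higher, where 10.2% of all genes passed as higher, and Il1rl1 as lower, where 9.93% did. With replicates 1 and 2 only, the same 6 genes passed, 5 higher and 1 lower, against 15.9% of all genes (7.93% higher, 7.99% lower). The median log2 change was 1.09 against -0.01 for all genes. The groups did not overlap for Il1a, Il1b, Il36g and Il1rn in either genotype, 4 of 10 genes, whereas 13.8% and 14.1% of all genes stood higher without overlap in CD18fl/fl and CD18CD11c cKO BMDCs, respectively. The change within same-numbered libraries is plotted for each gene.

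**Figure D2:**
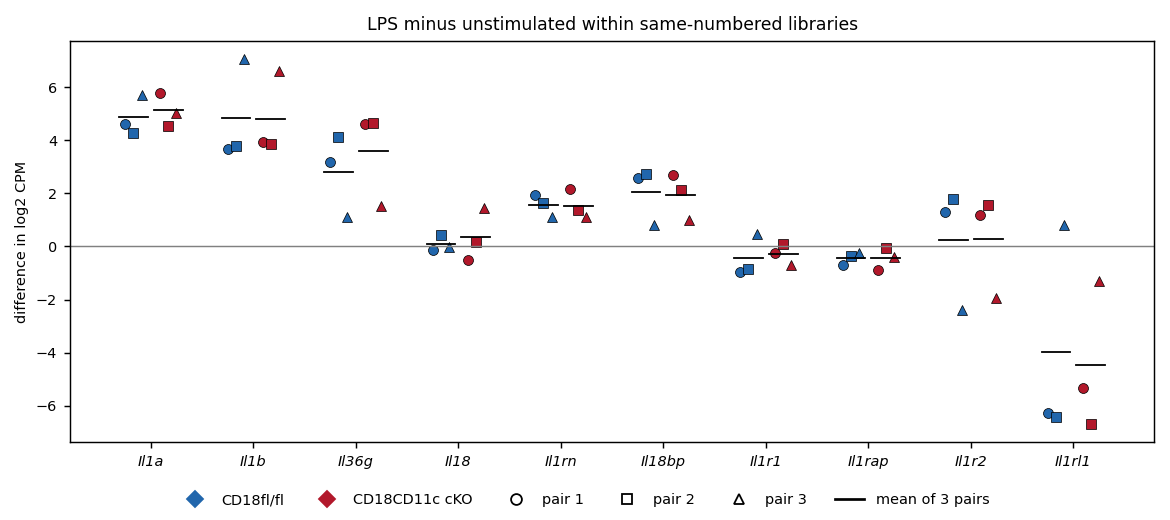
Difference in log2 CPM between the LPS-treated and the unstimulated library of the same replicate number, for the 10 genes in CD18fl/fl (blue) and CD18CD11c cKO (red) BMDCs, with lines for the mean of 3 pairs. Il1a, Il1b, Il36g, Il1rn and Il18bp lie above 0 in all pairs, and Il1r2 lies above 0 in pairs 1 and 2 and below 0 in pair 3. The values of Il1rl1 rest on 0 to 86 reads after LPS.

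Il1b, the main inflammasome-dependent cytokine of the family, stood at 55.7, 55.9 and 11.3 CPM in replicates 1 to 3 of unstimulated CD18fl/fl BMDCs and at 712, 772 and 1509 CPM after LPS. The CD18CD11c cKO BMDCs held 104, 65.4 and 23.3 CPM unstimulated and 1574, 948 and 2297 CPM after LPS. The replicate 3 libraries had the lowest unstimulated and the highest LPS-treated levels in both genotypes. The log2 fold change was 4.61 ± 0.72 (SE; edgeR adjusted p = 0.025) in CD18fl/fl and 4.62 ± 0.65 (adjusted p = 0.021) in CD18CD11c cKO BMDCs. It passed the threshold under each of the 12 other settings of the test, with adjusted p between 1.22e-11 and 0.0345 in CD18fl/fl and between 6.89e-14 and 0.022 in CD18CD11c cKO BMDCs. When 1 library was left out, it no longer passed without replicate 1 or 2 of either state in either genotype (highest adjusted p 0.131 and 0.0875). In those fits, 0 of all genes passed in CD18fl/fl and 0 to 26 in CD18CD11c cKO BMDCs. The log2 fold change of Il1b stayed between 4.16 and 5.13 over all single libraries left out. Restricted to replicates 1 and 2, it was 3.73 and 3.79 in CD18fl/fl and CD18CD11c cKO BMDCs, respectively. An antisense gene, Il1bos, overlaps Il1b and held 0 to 43 reads per library.

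Il1a, which is active without cleavage by caspase-1, was near 1 CPM in replicates 1 and 2 of unstimulated BMDCs, with 1.25 and 0.98 CPM in CD18fl/fl and 1.49 and 1.37 CPM in CD18CD11c cKO, and at 8.90 and 12.3 CPM in the respective replicate 3. After LPS, it stood at 31.9, 20.1 and 465 CPM in CD18fl/fl and at 86.2, 33.4 and 408 CPM in CD18CD11c cKO BMDCs. The replicate 3 libraries thus stood several-fold above the others in both states. The log2 fold change was 5.55 ± 1.60 (edgeR adjusted p = 0.1) and 5.10 ± 1.32 (adjusted p = 0.079) in the main test, and 4.95 ± 0.37 (adjusted p = 0.0041) and 5.12 ± 0.30 (adjusted p = 0.00065) in the blocked test. Within same-numbered pairs, the log2 difference was 4.61, 4.28 and 5.70 in CD18fl/fl and 5.79, 4.55 and 5.04 in CD18CD11c cKO BMDCs. With replicates 1 and 2 only, the fitted change was 4.55 and 5.28. Leaving out 1 replicate 3 library broke its pair and moved the change in the unpaired main test. In CD18fl/fl BMDCs, it was 7.28 without unstimulated replicate 3 and 2.82 without LPS-treated replicate 3. In CD18CD11c cKO BMDCs, it was 6.95 and 3.45, respectively. There, Il1a passed without the former (adjusted p = 0.047), as did 357 of all genes. Of the few Il1a reads in unstimulated CD18fl/fl BMDCs, 55.6% (25 of 45, 95% Wilson interval 41.2% to 69.1%), 30.8% (12 of 39, 18.6% to 46.4%) and 5.71% (19 of 333, 3.68% to 8.74%) lay in introns. After LPS, the intron share was 0.804%, 0.739% and 3.57%. In CD18CD11c cKO BMDCs, it was 9.52% (4 of 42), 24.4% (10 of 41) and 8.67% (37 of 427) unstimulated, and 0%, 0% and 1.29% after LPS. The antisense gene Gm14023 overlaps Il1a and held 0 to 164 reads, so that reads of both cannot be told apart where the counting did not use strand.

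Il36g encodes IL-36γ, an IL-36 receptor agonist of epithelial and myeloid cells. It stood at 6.85, 6.27 and 62.8 CPM in unstimulated CD18fl/fl BMDCs and at 62.9, 109 and 136 CPM after LPS. In CD18CD11c cKO BMDCs, the levels were 5.23, 7.00 and 34.8 CPM unstimulated and 131, 179 and 101 CPM after LPS. Replicate 3 started highest in both genotypes and its change was the smallest, so that the groups in CD18fl/fl BMDCs were separated only by the gap between 62.8 and 62.9 CPM. The log2 fold change was 2.03 ± 0.92 (edgeR adjusted p = 0.23) and 3.06 ± 0.75 (adjusted p = 0.067), and 2.83 ± 0.60 (adjusted p = 0.035) and 3.61 ± 0.66 (adjusted p = 0.012) in the blocked test. Without replicate 3 of the unstimulated libraries, Il36g changed by 3.97 and 4.42 and passed the main test in both genotypes (adjusted p = 0.016 and 0.0076). Of all genes, 506 and 357 passed in these fits, respectively. Over all single libraries left out, the change ranged from 1.57 to 3.97 and from 2.63 to 4.42.

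Il18, in contrast, was low and was not called in any comparison by any test. Its levels ranged from 3.56 to 7.03 CPM in CD18fl/fl BMDCs and from 5.81 to 16.0 CPM in CD18CD11c cKO BMDCs over both states. The log2 change with LPS was 0.12 ± 0.40 in CD18fl/fl (adjusted p = 0.88) and 0.40 ± 0.42 in CD18CD11c cKO BMDCs (adjusted p = 0.64). The sign of both changes depended on the setting.

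The IL-1 receptor antagonist Il1rn was already well expressed without stimulation. It stood at 87.3, 114 and 208 CPM in unstimulated CD18fl/fl BMDCs and at 331, 351 and 452 CPM after LPS, and at 54.6, 89.2 and 152 CPM and 242, 229 and 325 CPM, respectively, in CD18CD11c cKO BMDCs. Replicate 3 was the highest in all 4 groups. The log2 fold change was 1.48 ± 0.37 (edgeR adjusted p = 0.078) and 1.38 ± 0.41 (adjusted p = 0.11), and 1.56 ± 0.25 (adjusted p = 0.015) and 1.48 ± 0.24 (adjusted p = 0.0078) in the blocked test. In CD18fl/fl BMDCs, Il1rn passed the main test without unstimulated replicate 3 (adjusted p = 0.03) or without LPS-treated replicate 3 (adjusted p = 0.048). Of all genes, 506 and 3268 passed in these fits, respectively.

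Il18bp, the soluble inhibitor of IL-18 and a known interferon-γ target, stood at 41.0, 47.6 and 15.8 CPM in unstimulated CD18fl/fl BMDCs and at 244, 316 and 27.3 CPM after LPS. In CD18CD11c cKO BMDCs, it stood at 15.6, 27.6 and 8.21 CPM unstimulated and at 99.8, 121 and 16.6 CPM after LPS. Replicate 3 was the lowest in all 4 groups, and the groups overlapped for this reason. The log2 fold change was 2.49 ± 0.86 (edgeR adjusted p = 0.14) and 2.12 ± 0.73 (adjusted p = 0.15), and 2.06 ± 0.43 (adjusted p = 0.033) and 1.90 ± 0.31 (adjusted p = 0.0085) in the blocked test. Without replicate 3 after LPS, Il18bp passed the main test in both genotypes (adjusted p = 0.011 and 0.031), as did 3268 of 13206 and 1033 of 13244 genes.

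Of the receptors, Il1r1 remained near the low end of the family, between 1.49 and 4.08 CPM in the 12 libraries. Its log2 change with LPS was -0.50 ± 0.47 in CD18fl/fl (edgeR adjusted p = 0.55) and -0.35 ± 0.54 in CD18CD11c cKO BMDCs (adjusted p = 0.77). The co-receptor Il1rap ranged from 0.90 to 3.84 CPM in replicates 1 and 2 and from 6.89 to 15.6 CPM in replicate 3. It was lower after LPS in all 6 same-numbered pairs, although its log2 change of -0.31 ± 0.93 and -0.45 ± 1.05 was not called (adjusted p = 0.87 and 0.85), nor was it in the blocked test (-0.43, adjusted p = 0.33; -0.51, adjusted p = 0.42). Counts per gene do not separate the membrane-bound from the soluble forms of IL-1RAP, IL-1R2 and ST2.

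The decoy receptor Il1r2 moved in opposite directions in replicates 1 and 2 and in replicate 3. In CD18fl/fl BMDCs, it stood at 123, 124 and 199 CPM unstimulated and at 304, 425 and 37.9 CPM after LPS. The CD18CD11c cKO BMDCs held 206, 110 and 143 CPM unstimulated and 471, 325 and 37.5 CPM after LPS. The log2 differences of the 3 same-numbered pairs were 1.31, 1.78 and -2.39 in CD18fl/fl and 1.19, 1.56 and -1.93 in CD18CD11c cKO BMDCs. Accordingly, the mean log2 change of 0.79 in both genotypes was not called (SE 0.75 and 0.74; edgeR adjusted p = 0.56 and 0.6). With replicates 1 and 2 only, it was 1.56 ± 0.19 (adjusted p = 4.9e-05) in CD18fl/fl and 1.23 ± 0.35 (adjusted p = 0.058) in CD18CD11c cKO BMDCs. Without replicate 3 after LPS alone, Il1r2 also passed in CD18fl/fl BMDCs (adjusted p = 0.028), as did 3268 of 13206 genes. Il1r2 is also highly expressed by neutrophils, whose markers summed to 108 to 1719 CPM in unstimulated and to 62.7 to 113 CPM in LPS-treated libraries. Of these 12 markers, Elane, Mpo, Retnlg and Cxcr2 were at 0 in LPS-treated CD18CD11c cKO BMDCs. The part of neutrophils in the levels of Il1r2 was not tested.

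Il1rl1 encodes ST2, the receptor of IL-33 on mast cells, eosinophils and innate lymphoid cells. It held 349, 214 and 13 reads (9.68, 5.37 and 0.35 CPM) in unstimulated CD18fl/fl BMDCs and 2, 0 and 26 reads after LPS, against 668, 193 and 243 reads (23.8, 6.44 and 7.03 CPM) and 13, 0 and 86 reads in CD18CD11c cKO BMDCs. After LPS, the gene was at or below the floor of 3 reads in replicates 1 and 2 of CD18fl/fl and in replicate 2 of CD18CD11c cKO BMDCs. The groups overlapped in CD18fl/fl, and did not in CD18CD11c cKO BMDCs, where 14.2% of all genes were lower without overlap. The fitted log2 change was -4.33 ± 1.57 (edgeR adjusted p = 0.16) and -3.45 ± 1.30 (adjusted p = 0.18), and in the blocked test -4.59 ± 2.16 (adjusted p = 0.2) and -4.19 ± 1.13 (adjusted p = 0.043). With replicates 1 and 2 only, it passed in both genotypes (adjusted p = 9.5e-06 and 0.022), and so it did without replicate 3 after LPS (-7.10 and -5.58, adjusted p = 0.0397 and 0.0495). Without that library, 3268 of 13206 genes passed in CD18fl/fl and 1033 of 13244 in CD18CD11c cKO BMDCs. Eosinophil markers (7 genes) moved alongside, summing to 95.4, 43.1 and 2.54 CPM in unstimulated and 6.49, 6.73 and 0.61 CPM in LPS-treated CD18fl/fl BMDCs, and to 140, 137 and 27.2 CPM and 10.7, 10.7 and 5.79 CPM in CD18CD11c cKO BMDCs. Epx and Ear1, which define eosinophils, were at 0 in the LPS-treated libraries of both genotypes. Mast cell and basophil markers (12 genes) summed to 125 and 159.5 CPM in LPS-treated replicate 3 of CD18fl/fl and CD18CD11c cKO BMDCs, which held 26 and 86 Il1rl1 reads, and to 19 to 28.6 CPM in the other LPS-treated libraries, which held 0 to 13. They were higher after LPS than before in replicate 3 of CD18fl/fl BMDCs (95.9 CPM unstimulated) and lower in that of CD18CD11c cKO BMDCs (184 CPM). The part of eosinophils, mast cells or basophils in the levels of Il1rl1 was not tested.

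The balance of inhibitor and cytokine reads was compared within each library, since a ratio of 2 genes in a library does not depend on how libraries are scaled. A ratio can still depend on gene length, and none was adjusted for it. Adding an offset for gene length to the blocked test moved the unstimulated genotype difference of Il18 from 0.79 to 0.21 and that of Il1b from 0.78 to 0.36. The differences of Il18bp (-0.98 and -0.96) and Il1rn (-0.44 and -0.47) changed little. The Il1rn to Il1b ratio fell after LPS. Its log2 value was 0.65, 1.03 and 4.21 in unstimulated CD18fl/fl BMDCs and -1.11, -1.14 and -1.74 after LPS, and -0.93, 0.45 and 2.70 against -2.70, -2.05 and -2.82 in CD18CD11c cKO BMDCs. Each of the 6 LPS-treated libraries lay below each unstimulated library of its genotype. The mean difference was -3.28 on the log2 scale (exact two-sided permutation test within genotype, p = 0.005, the smallest these 400 arrangements can give, adjusted p = 0.04 over 8 ratio tests), and it was lower in 6 of 6 same-numbered pairs. An exact sign-flip test of the same-numbered pairs gave an adjusted p of 0.083, where the smallest possible unadjusted p is 0.031. Without replicate 1 or 2 of LPS-treated CD18CD11c cKO BMDCs, the adjusted exact permutation p was 0.08.

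The ratio of Il18bp to Il18 was lower in CD18CD11c cKO than in CD18fl/fl BMDCs in 6 of 6 same-numbered pairs, but did not pass after adjustment. Its log2 value was 2.76, 3.20 and 2.13 in unstimulated CD18fl/fl and 0.70, 1.58 and 0.50 in unstimulated CD18CD11c cKO BMDCs, which did not overlap. After LPS, it was 5.47, 5.49 and 2.94 in CD18fl/fl and 3.89, 3.55 and 0.05 in CD18CD11c cKO BMDCs, which overlapped because of replicate 3. The mean log2 difference was -1.95 (exact two-sided permutation test within state, p = 0.025, adjusted p = 0.1; sign-flip adjusted p = 0.083). Without replicate 3 of LPS-treated CD18fl/fl BMDCs, it was -2.38 with an adjusted p of 0.04 in the same exact permutation test. That adjusted p ranged from 0.04 to 0.28 over all single libraries left out. Between the genotypes, the Il1rn to Il1b ratio was also lower in 6 of 6 pairs (log2 difference -1.21, exact permutation p = 0.15, adjusted p = 0.3).
After LPS, the Il18bp to Il18 ratio was higher in 5 of 6 pairs (1.75, exact permutation p = 0.06, adjusted p = 0.16), and without replicate 3 of LPS-treated CD18CD11c cKO BMDCs it was 2.36 (exact permutation, adjusted p = 0.04). Over all single libraries left out, the adjusted exact permutation p ranged from 0.04 to 0.333. The ratios of Il1a to Il1b and of Il1r2 to Il1r1 did not pass in either comparison, with adjusted exact permutation p between 0.64 and 0.87. Both inhibitor to cytokine ratios are plotted by library.

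**Figure D3:**
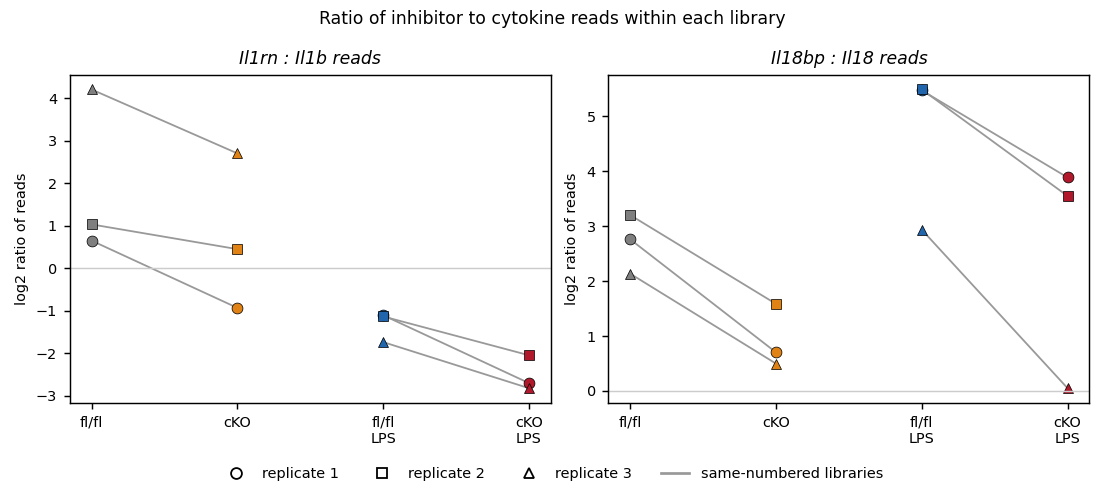
Log2 ratio of Il1rn to Il1b reads (left) and of Il18bp to Il18 reads (right) in each of the 12 libraries, where symbols give the replicate number and gray lines join same-numbered CD18fl/fl and CD18CD11c cKO libraries of a state. Each line runs downward, and the Il1rn to Il1b ratio lies between -2.82 and -1.11 after LPS.

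The genotypes were compared within each state to ask how loss of CD18 changed these transcripts. In the main test, 0 of the 10 genes passed in unstimulated and 0 in LPS-treated BMDCs, as did 0% of 12876 and 0% of 12441 genes. At an unadjusted edgeR p under 0.05, 0 of the 10 genes were found in unstimulated BMDCs (16.8% of all genes) and 1 (Il18) after LPS (9.74% of all genes), and DESeq2 called 0 of the 10 in both states, where it called 846 and 313 of all genes. In the blocked test, Il1b was higher and Il18bp lower in unstimulated CD18CD11c cKO BMDCs, 2 of 10 against 20.2% of all genes (12.1% higher, 8.16% lower). After LPS, Il1rn and Il18bp were lower in the blocked test, 2 of 10 against 10.1% of all genes, with 6.98% higher and 3.16% lower. The share of the 10 genes called in unstimulated BMDCs was therefore near that of all genes. With replicates 1 and 2 only, 0 of 10 passed unstimulated (10.6% of all genes) and 1 of 10, Il18bp, passed as lower after LPS (4.22%, 0.977% as lower).

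**Figure D4:**
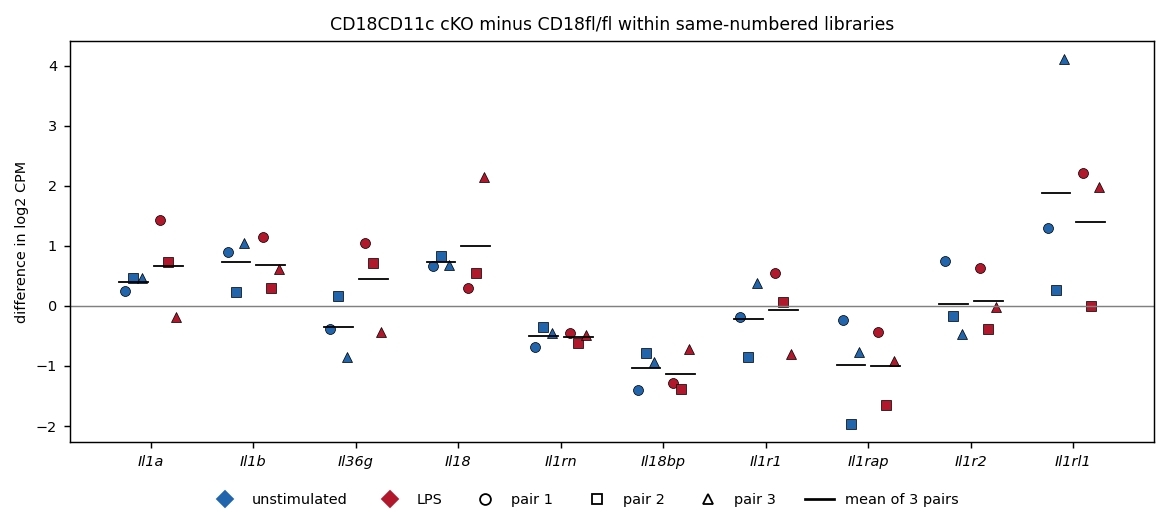
Difference in log2 CPM between the CD18CD11c cKO and the CD18fl/fl library of the same replicate number, for the 10 genes in unstimulated (blue) and LPS-treated (red) BMDCs, with lines for the mean of 3 pairs. Il1b and Il18 lie above 0 in all 6 pairs on this TMM scale, though not in the deposited TPM, and Il1rn, Il18bp and Il1rap lie below 0 in all 6 pairs.

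Il18bp was lower in CD18CD11c cKO BMDCs in all 6 pairs. The share of all genes with the same sign in all 6 pairs was not counted. Such pair counts, here and below, therefore do not set these genes apart from others. Its log2 difference (CD18CD11c cKO minus CD18fl/fl) was -1.39, -0.78 and -0.94 in the 3 unstimulated pairs and -1.29, -1.39 and -0.71 in the 3 LPS-treated pairs. In the main test, this amounted to -0.97 ± 0.56 (edgeR adjusted p = 0.42) and -1.34 ± 0.95 (adjusted p = 0.71), and in the blocked test to -0.98 ± 0.18 (adjusted p = 0.011) and -1.16 ± 0.18 (adjusted p = 0.013). It was the only one of the 10 genes that passed with both the block and an offset for gene length, in both states. Among all genes, 537 of 12876 passed that fit as lower and 913 as higher in unstimulated BMDCs. After LPS, 247 of 12441 passed it as lower and 594 as higher, so Il18bp was not alone in passing. The adjusted p of Il18bp ranged from 0.011 to 0.635 in unstimulated and from 0.0127 to 0.838 in LPS-treated BMDCs over all 12 alternatives. Numa1 overlaps Il18bp on the opposite strand.

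Il1rn was lower in CD18CD11c cKO BMDCs in all 6 pairs, and its groups did not overlap after LPS (331, 351 and 452 against 242, 229 and 325 CPM), which applied to 1 of the 10 genes and as lower to 8.83% of all genes. The log2 difference was -0.40 ± 0.45 unstimulated (edgeR adjusted p = 0.7) and -0.54 ± 0.27 after LPS (adjusted p = 0.59). In the blocked test, it was -0.44 ± 0.14 (adjusted p = 0.063) and -0.54 ± 0.13 (adjusted p = 0.045). With the gene length offset and the block, Il1rn did not pass. The summed macrophage and monocyte markers were also lower, without overlap, in LPS-treated CD18CD11c cKO BMDCs (1339 to 1457 CPM against 1806 to 2267 CPM). Of the 11 markers, 4 lay above and 7 below 0, with a median log2 difference of -0.17 (-0.11 over all genes). The main test called 0 of them, and the blocked test 0 as higher and 2 as lower (6.98% and 3.16% of all genes). The part of these cells in the differences of Il1rn and Il18bp was not tested.

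In TMM-scaled CPM, Il1b was higher in CD18CD11c cKO BMDCs in all 6 pairs, by 0.90, 0.23 and 1.04 on the log2 scale unstimulated and by 1.14, 0.30 and 0.61 after LPS. On other scales, pair 2 turned. In the deposited TPM, Il1b was higher in 4 of 6 pairs, with 73.7 against 94.9 TPM in unstimulated and 883 against 900.3 TPM in LPS-treated pair 2. By library size alone it was higher in 5 of 6 pairs. The groups overlapped in both states. The log2 difference was 0.69 ± 0.72 (edgeR adjusted p = 0.67) and 0.66 ± 0.45 (adjusted p = 0.7), and in the blocked test 0.78 ± 0.19 (adjusted p = 0.028) and 0.66 ± 0.18 (adjusted p = 0.063). With the gene length offset and the block, Il1b did not pass either. Neutrophil markers, whose cells also express Il1b, were lower in each unstimulated CD18CD11c cKO library than in the same-numbered CD18fl/fl library, with summed levels of 337, 446 and 108 CPM against 1719, 526 and 158 CPM in CD18fl/fl BMDCs. After LPS, they differed in both directions, with 104, 113 and 62.7 CPM against 92.2, 82.3 and 108 CPM in CD18fl/fl BMDCs. The part of neutrophils in the levels of Il1b was not tested.

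Il18 was also higher in CD18CD11c cKO BMDCs in all 6 pairs in TMM-scaled CPM, but in 5 of 6 in the deposited TPM (8.65 against 9.44 TPM in LPS-treated pair 1) and by library size, with log2 differences of 0.78 ± 0.35 unstimulated (edgeR adjusted p = 0.31, blocked 0.055) and 1.02 ± 0.43 after LPS (adjusted p = 0.51, blocked 0.16). With the gene length offset and the block, the unstimulated difference was 0.21 (adjusted p = 0.61) and that after LPS 0.54 (adjusted p = 0.45). On all 3 scales, Il1rn, Il18bp and Il1rap were lower in 6 of 6 pairs, for which no share of all genes was counted. The log2 differences of Il1rap were -0.76 ± 0.96 and -0.98 ± 1.04 (adjusted p = 0.74 and 0.81, blocked 0.12 in both states). Il1a, Il36g, Il1r1 and Il1r2 differed in both directions among the 6 pairs. Il1rl1 was higher in 5 of 6 pairs in TMM-scaled CPM (4 of 6 in TPM and by library size), and in the remaining pair both LPS-treated libraries held 0 reads.

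Whether the response to LPS differed between the genotypes was tested as the interaction over 12 libraries. Of the 10 genes, 0 passed the edgeR test, with or without the block, or DESeq2. Of all 13752 genes, 0% passed the edgeR test in both fits, and DESeq2 called 1 gene. At an unadjusted edgeR p under 0.05 in the main test, 0 of the 10 genes were found, against 48 higher and 49 lower among all genes. The interaction was 0.04 ± 0.91 for Il1b, -0.04 ± 0.56 for Il1rn, -0.29 ± 1.20 for Il18bp and 1.10 ± 1.26 for Il36g on the log2 scale (SE). With the block, the SE was 0.88, 0.31, 0.52 and 0.87, respectively, so that differences in response of this size were not detectable.

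Further genes of the family, which encode IL-33, other IL-36 cytokines and the receptors of IL-18 and IL-36, were examined as a list of 11. Of these, 6 were tested in CD18fl/fl BMDCs and 1 passed the main test, as lower after LPS, where 1.83% of all genes did, with a median log2 change of -1.47 (-0.02 over all genes). In CD18CD11c cKO BMDCs, 7 were tested and 1 passed, as lower (1.76% of all genes), with a median of -0.81 (-0.01 over all genes). Il18rap, the IL-18 co-receptor, fell from 27.5, 25.4 and 19.1 CPM to 2.79, 3.61 and 3.71 CPM (log2 fold change -2.82 ± 0.28, edgeR adjusted p = 0.013). In CD18CD11c cKO BMDCs, it also fell, from 50.7, 22.7 and 23.2 CPM to 3.77, 8.35 and 3.14 CPM (-2.72 ± 0.50, adjusted p = 0.037). Il18rap did not pass without replicate 1 or 2 of either state in either genotype (highest adjusted p 0.098 and 0.145). In those fits, 0 of all genes passed in CD18fl/fl and 0 to 26 in CD18CD11c cKO BMDCs. Il18r1, the ligand-binding chain, was lower without overlap in both genotypes, as were 15.6% and 14.2% of all genes, and passed the blocked test (-2.12, adjusted p = 0.0063; -2.53, adjusted p = 0.0046), while the main test gave an adjusted p of 0.061 and 0.074. The IL-36 receptor Il1rl2 changed by -1.84 (adjusted p = 0.11) and -1.78 (adjusted p = 0.054, blocked 0.014).
Sigirr, an inhibitory receptor of the family, changed by -1.11 (edgeR adjusted p = 0.37) and -0.81 (adjusted p = 0.33), and Il1rapl1 by 2.42 (adjusted p = 0.25, with 231 reads in replicate 3 of LPS-treated CD18fl/fl BMDCs and 7 to 30 in the others) and 0.83 (adjusted p = 0.64). Il33, the ligand of ST2, stood at 0.96, 0.63 and 0.86 CPM in LPS-treated CD18fl/fl and at 3.49, 3.28 and 2.27 CPM in LPS-treated CD18CD11c cKO BMDCs. These groups did not overlap (9.18% of all genes were higher without overlap), yet the log2 difference of 1.84 ± 0.49 did not pass (adjusted p = 0.36, blocked 0.07). T and natural killer cell markers, whose cells express the IL-18 receptor, summed to 4.19 to 35.2 CPM in unstimulated and to 1.57 to 4.50 CPM in LPS-treated libraries, and their part in the change of Il18rap and Il18r1 was not tested.

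Genes for the cleavage and release of IL-1 cytokines were examined as a list of 15, of which 3 passed as higher and 0 as lower with LPS in CD18fl/fl BMDCs in the main test, against 2.06% and 1.83% of all genes, with a median log2 change of 0.27. The corresponding count in CD18CD11c cKO BMDCs was 2 as higher and 0 as lower, against 2.23% and 1.76%, with a median of 0.11. Casp4, the sensor of cytosolic LPS, rose from 18.2, 17.9 and 21.6 CPM to 115, 126 and 106 CPM (log2 fold change 2.59 ± 0.22, edgeR adjusted p = 0.0099). Casp1, which cleaves pro-IL-1β and pro-IL-18, rose from 48.5, 46.5 and 50.9 CPM to 142, 167 and 125 CPM (1.58 ± 0.22, adjusted p = 0.019). Ninj1, which mediates rupture of the plasma membrane, rose by 1.60 ± 0.32 (adjusted p = 0.046), but did not pass with library size scaling (1.24, adjusted p = 0.052). Casp4 and Casp1 had similar levels in the 3 unstimulated libraries of CD18fl/fl BMDCs. They were named for a small adjusted p, which favors genes with little spread. The whole list was less even there, summing to 4521, 4258 and 2284 CPM. In CD18CD11c cKO BMDCs, Casp4 (2.61 ± 0.23, adjusted p = 0.011) and Casp1 (1.28 ± 0.21, adjusted p = 0.03) rose, and Ninj1 changed by 1.19 ± 0.26 (adjusted p = 0.051, blocked 0.0095). Casp1 and Casp4 in CD18fl/fl BMDCs did not pass without replicate 1 or 2 of either state (highest adjusted p 0.134 and 0.098), and Ninj1 passed only without LPS-treated replicate 3 (highest adjusted p 0.208). In CD18CD11c cKO BMDCs, Casp4 did not pass without unstimulated replicate 1 or 2 or LPS-treated replicate 2 (highest adjusted p 0.068), and Casp1 passed only without LPS-treated replicate 3 (highest adjusted p 0.143). Without replicate 1 or 2 of either state, 0 of all genes passed in CD18fl/fl and 0 to 26 in CD18CD11c cKO BMDCs.

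Of 25 genes for signaling downstream of IL-1 receptors, many of which also act downstream of TLR4, 1 passed in the main test with LPS in each genotype, where 3.89% and 3.99% of all genes did, so that the share of this list was near that of all genes. Mapk14, which encodes p38α, fell from 84.8, 83.6 and 76.4 CPM to 26.3, 28.0 and 35.0 CPM in CD18fl/fl (log2 fold change -1.45 ± 0.22, edgeR adjusted p = 0.024) and by 1.34 ± 0.26 on the log2 scale in CD18CD11c cKO BMDCs (adjusted p = 0.042). Mapk14 did not pass without replicate 1 or 2 of either state in CD18fl/fl BMDCs (highest adjusted p 0.142), and passed only without LPS-treated replicate 3 in CD18CD11c cKO BMDCs (highest adjusted p 0.151). Without replicate 1 or 2 of either state, 0 of all genes passed in CD18fl/fl and 0 to 26 in CD18CD11c cKO BMDCs. The median log2 change of this list was 0.39 and 0.41. Between the genotypes, none of these 3 lists held a gene that passed the main test, in which 0 of all genes passed. In the blocked test, 7 of 25 signaling genes (1 higher, 6 lower), 6 of 15 genes for cleavage and release (4 higher, 2 lower) and 1 of 5 further family genes tested (higher) passed in unstimulated BMDCs, against 20.2% of all genes. After LPS, 3 of 25 (1 higher, 2 lower), 3 of 15 (1 higher, 2 lower) and 0 of 7 passed, against 10.1% of all genes. Of the genes named above, the blocked test called Il18r1 (0.89, edgeR adjusted p = 0.012) and Casp1 (0.48, adjusted p = 0.043) as higher in unstimulated and Ninj1 (-0.86, adjusted p = 0.028) as lower in LPS-treated CD18CD11c cKO BMDCs.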

How the data were processed

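RNA-seq of MHCII+ BMDCs was examined in 12 libraries, 3 in each of 4 groups, with group and replicate number taken from the labels. Per the paper's methods, the authors made poly(A)-selected single-end libraries and mapped and counted the reads in CLC Genomics Workbench. The labels' processing notes name GRCm38 and the paper GRCm39. The coordinates of all 11 genes compared (the 10 family genes and Itgb2) overlapped their GRCm39 gene, and those of 2 of 10 overlapped their GRCm38 gene, so GRCm39 was used. The authors deposited raw counts (total and unique gene reads, of which 95.12% to 96.19% were unique) and TPM values per gene. Use of strand in the counting is not given in the sources used here.

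Total gene reads were tested with edgeR 4.0.16 in R 4.3.3 (TMM normalization, filter with a minimum count of 10, quasi-likelihood test, Benjamini-Hochberg adjustment over all genes tested, threshold 0.05). The study's methods name DESeq2, which was run here as an alternative (version 1.42.0). The SE of a log2 fold change was derived from the F statistic. CPM are scaled by TMM over the 12 libraries. Under library size scaling, an alternative, the median log2 difference of all genes was -0.32 and -0.23 with LPS in CD18fl/fl and CD18CD11c cKO BMDCs, and -0.44 and -0.37 between unstimulated and LPS-treated genotypes. Ratios were compared on the log2 scale (0.5 reads added) by exact permutation tests in SciPy 1.17.1.

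Same-numbered libraries deviated together from their group means (correlations of 0.265 to 0.716 over all comparisons). The pairing comes from the replicate numbers in the labels, and what a number shares is not stated. No library was a copy of another (lowest chi-square per degree of freedom 46.6 among 66 pairs).

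The family genes and the gene lists were chosen with earlier results of these data known. All 10 family genes are named, as are each tested gene of the further family list, up to 3 genes per direction and list with the smallest adjusted p with LPS in CD18fl/fl BMDCs, and the 3 genes most like Il1a, Il1b and Il1rn over the libraries. Large changes did not always pass the main test. With LPS in CD18fl/fl BMDCs, Il1a (log2 fold change 5.55 ± 1.60, edgeR adjusted p = 0.1) and Il1rl1 (-4.33 ± 1.57, adjusted p = 0.16) did not. Which size of change the main test recovers at the spread of these libraries was not tested. The alternatives were DESeq2, RLE and library size scaling, other filters on low counts, unique reads, the replicate block, a gene length offset, replicates 1 and 2 only, all libraries in a joint fit, and each library left out in turn.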

Additional observations from a re-analysis of the deposited data

How the results depend on the processing

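Il1b passed with LPS in both genotypes under each of the 12 alternatives that keep whole groups or pairs. Counts of genes passing depended on the setting. With LPS in CD18fl/fl BMDCs, 496 genes (1 of the 10 family genes) passed, against 1966 (4) with DESeq2, 1627 (5) with the replicate block, 1727 (5) with gene length offset and block, 6140 (7) with replicates 1 and 2 only, 1068 (2) with all 12 libraries in 1 fit and 3365 (6) with that fit and the block, and 0 to 3268 (0 to 5) when 1 library was left out. With LPS in CD18CD11c cKO BMDCs, 506 (1) became 1681 (6), 2560 (6), 2591 (6), 2049 (6), 983 (1) and 3016 (5) in the same order, 805 (3) without the filter on low counts, and 0 to 1033 (0 to 3) leaving out 1 library. Without replicate 3 after LPS, 3268 and 1033 genes passed, and without replicate 1 or 2 of either state 0 did in CD18fl/fl and 0 to 26 in CD18CD11c cKO BMDCs. Between unstimulated genotypes, 0 (0) became 846 (0), 2606 (2), 1450 (1), 1383 (0), 19 (0) and 1115 (0). After LPS, 0 (0) became 313 (0), 1262 (2), 841 (1), 523 (1), 45 (0) and 623 (0), 1 (0) without the filter and 0 to 1 leaving out 1 library. In the interaction, DESeq2 called 1 gene and no family gene.

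Among the genes named in the comparisons, excluding marker genes, the block changed no calls other than those given with the results. Under the paired sign-flip test, the Il1rn to Il1b difference with LPS (-3.276) had an adjusted p of 0.083. It ranged from -3.69 to -2.71 leaving out 1 library, with an adjusted p of 0.08 without replicate 1 or 2 of LPS-treated CD18CD11c cKO BMDCs. The Il18bp to Il18 difference ranged from 1.40 to 2.36 with LPS and from -2.38 to -1.34 between genotypes. Its adjusted exact permutation p ranged from 0.04 (without replicate 3 of LPS-treated CD18CD11c cKO BMDCs) to 0.333 with LPS and from 0.04 to 0.28 between genotypes.

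Signs that changed belonged to log2 differences that did not pass the main test. With library size scaling, they were Il18 (-0.23) and Il33 (-0.19) with LPS in CD18fl/fl BMDCs, Il1r2 (-0.30 unstimulated, -0.13 after LPS) and Il1a (-0.30 after LPS) between genotypes. With the gene length offset, they were Il18 (-0.0070) with LPS in CD18fl/fl BMDCs, Il1r1 (0.099 and 0.18), Il1r2 (-0.13 and -0.016) and Il1a (-0.088 after LPS) between genotypes, and with the block in addition Il1r1 (0.10 and 0.083), Il1r2 (-0.13 and -0.051) and in the interaction Il1a (0.24) and Il1r1 (-0.048). With replicates 1 and 2 only, they were Il33 (-0.43, CD18fl/fl) and Il18 (-0.25, CD18CD11c cKO) with LPS, Il1r1 (0.33) between genotypes after LPS, and in the interaction Il1a (0.78), Il18 (-0.36) and Il1r2 (-0.28). In the interaction, the replicate block turned Il1a (0.22), DESeq2 and RLE scaling Il1b (-0.014 and -0.014), and a minimum count of 30 Il1b (-0.023) and Il1r2 (-0.057). All 12 libraries with the block turned Il1r2 between unstimulated genotypes (-0.13), and unique reads the Il1a to Il1b ratio between genotypes (0.022). The cause was not tested.

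Leaving out 1 library, the log2 change with LPS ranged from -0.11 to 0.34 (Il18), -1.67 to 0.85 (Il1rap) and -0.39 to 0.76 (Il33) in CD18fl/fl, and from -0.032 to 0.67 (Il18) and -2.05 to 0.91 (Il1rap) in CD18CD11c cKO BMDCs. Between unstimulated genotypes it ranged from -1.29 to 2.23 (Il1a), -0.85 to 0.0089 (Il1rn), -0.49 to 0.099 (Il1r1), -0.18 to 0.35 (Il1r2), -2.11 to 0.37 (Il1rap) and -1.96 to 1.30 (Il36g), and after LPS from -1.59 to 2.75 (Il1a), -0.41 to 0.13 (Il1r1), -0.53 to 0.64 (Il1r2) and -2.54 to 0.38 (Il1rap). The interaction ranged from -2.17 to 2.21 (Il1a), -0.36 to 0.57 (Il1b), -0.56 to 0.42 (Il1rn), -0.069 to 0.56 (Il18), -0.95 to 0.24 (Il18bp), -0.18 to 0.51 (Il1r1), -0.59 to 0.65 (Il1r2), -1.64 to 1.22 (Il1rap), -1.20 to 3.58 (Il1rl1) and -0.94 to 2.47 (Il36g). The Il1a to Il1b ratio ranged from -0.32 to 1.09 with LPS and from -0.99 to 0.71 between genotypes, and Il1r2 to Il1r1 from -0.43 to 0.65 between genotypes. At this depth, genes with few reads, such as Il1rl1 and Il33, are the least certain.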

Other observations

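Other IL-36 cytokines were at the limit of detection. Il36a held 0 reads in all 6 unstimulated libraries and 6, 1 and 30 reads in LPS-treated CD18fl/fl and 10, 14 and 17 reads in LPS-treated CD18CD11c cKO BMDCs. Il36b held 4 reads in a single LPS-treated library of each genotype and 0 in the others, and Il36rn and Il1f10 held 0 reads in all 12 libraries. Il36a was thus read in all 6 LPS-treated libraries, above the floor of 3 reads in 5 of them, and in no unstimulated library.

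The genes whose pattern over the 12 libraries was most like that of the LPS-responsive family genes, by the root mean square difference of centered log2 CPM among 13751 genes, were Cfb, Ifi44 and Mx2 for Il1b (differences of 0.67, 0.69 and 0.69, where the median over all genes was 2.65). Cfb encodes complement factor B, and Ifi44 and Mx2 are interferon-stimulated genes. For Il1a, they were Slc7a2, a transporter of cationic amino acids, Timp1, an inhibitor of metalloproteinases, and Adig (1.06, 1.12 and 1.17, median 3.05). For Il1rn, they were Abcc5, Tmem63b and Gbe1 (0.20, 0.21 and 0.24, median 1.14). The 12 points of each gene share library, depth and replicate number, so that these values are a description only.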
